A study of Mus musculus with 4 samples.

Results

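Frem1, Frem2, Fras1 and Grip1 encode the Fraser complex of embryonic basement membranes and the scaffold that delivers it, and they were read on 4 microarrays of mouse embryo tissue. They were chosen by gene symbol, as all probe sets whose single symbol in the platform annotation is one of these names. This gave 6 probe sets of 45101, 1 each for Frem1 and Frem2 and 2 each for Fras1 and Grip1. The genes had been picked with their values on these arrays and their tissue differences known, so those values are given as a description, without a test.

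The tissue of interest was foregut endoderm, taken at the anterior intestinal portal, and it was set against heart mesoderm pooled with mesoderm and ectoderm of the head. Both came from ARC/s mouse embryos at embryonic day 8.5 with 4 to 5 somites (from 3 somites in the source label), no mutant or treated embryos were included, and each sample pooled 15 to 20 tissue pieces. There were 2 experiments with 1 sample of each tissue in either: tissues numbered 1 were separated by hand and those numbered 2 after digestion with trypsin and pancreatin, so experiment and dissection cannot be told apart. A description field calls foregut endoderm 2 ectoderm, against its title and its tissue label. The labels do not say whether the numbered samples came from separate litters, so any p-value measures only the spread between these samples.

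FRAS1, FREM1 and FREM2 are large extracellular proteins that share a row of repeats first described in the proteoglycan NG2. FRAS1 and FREM2 span the cell membrane, whereas FREM1 is secreted, and the proteins stabilise each other in the basement membrane beneath embryonic epithelia. GRIP1 is a PDZ-domain scaffold inside the cell that brings FRAS1 and FREM2 to the basal surface. Mouse mutants of each gene form blisters under the embryonic epidermis, and human mutations of FRAS1, FREM2 and GRIP1 cause Fraser syndrome. In zebrafish, fras1 acts in the endoderm of a pharyngeal pouch.

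The upstream sequences of Frem1 and Frem2 are shown first because these related genes, on chromosomes 4 and 3, gave different patterns in the same 4 samples. They are the 250 bases before an annotated start in RefSeq (GRCm38.p6), on the minus strand for both genes, written 5′ to 3′. Frem1 has 2 annotated starts in that table, and Frem2 has 1. Capitals mark the letters of a motif found by a search of both strands.
Frem1, chr4:83052167-83052416: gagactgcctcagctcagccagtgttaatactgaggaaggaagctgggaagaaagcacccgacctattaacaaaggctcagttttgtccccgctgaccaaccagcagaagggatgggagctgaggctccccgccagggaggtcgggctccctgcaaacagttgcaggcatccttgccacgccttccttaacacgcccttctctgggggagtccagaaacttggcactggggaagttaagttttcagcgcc
Frem1, chr4:83021103-83021352: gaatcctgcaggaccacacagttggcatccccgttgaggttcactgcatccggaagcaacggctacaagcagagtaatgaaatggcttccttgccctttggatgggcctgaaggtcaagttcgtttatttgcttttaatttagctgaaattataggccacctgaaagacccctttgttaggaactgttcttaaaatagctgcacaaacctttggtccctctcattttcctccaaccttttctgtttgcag
Frem2, chr3:53657356-53657605: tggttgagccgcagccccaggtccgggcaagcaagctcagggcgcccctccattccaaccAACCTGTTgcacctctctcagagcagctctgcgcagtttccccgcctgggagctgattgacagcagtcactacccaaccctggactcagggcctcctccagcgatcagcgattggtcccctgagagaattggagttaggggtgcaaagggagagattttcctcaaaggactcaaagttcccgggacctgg
The search used the forkhead letters TGTTTAC and the AP-2 letters GCCNNNGGC. It also used the grainyhead letters AACNGGTT, the TATA box as TATAAA and the GC box as GGGCGG. None was found in either Frem1 window, and Frem2 held 1 grainyhead match, beginning 190 bases before the start. Of 32817 mouse promoter windows of the same length, 1.78% held that motif, 3.16% the forkhead letters, 13.7% the AP-2 letters, 12.4% the TATA letters and 32.7% the GC box. The GC content was 56.8% and 45.6% in the Frem1 windows and 59.6% in Frem2, where the median window had 52.4%. A match is a description of letters and not a binding site. The same table held 3 of the 4 genes, Fras1 not among them.

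Values are log2 intensities, on which a step of 1 is a doubling. The lowest value of an array lay between 2.25 and 2.28, and all 6 probe sets were above 5 on all 4 arrays, the level that a probe set had to pass on at least 2 arrays to be kept. No kept value of these genes therefore rests on the array floor. Over the whole array 13288 probe sets were kept.

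The foregut marker list read higher in both endoderm samples. It was chosen with earlier results of these data known, so it is no independent check of the label. The median over 14 endoderm markers was 7.62 and 9.27 in foregut endoderm 1 and 2, against 4.02 and 4.88 in mesoderm/ectoderm 1 and 2, and Foxa1 stood at 10.92 and 10.82 against 4.13 and 4.89. Nkx2-1 was at the floor on all 4 arrays. Heart muscle genes did not follow the labels: their median over 12 genes was 9.91 and 3.81 in endoderm 1 and 2, against 3.31 in mesoderm/ectoderm 1 and 10.96 in mesoderm/ectoderm 2. Among surface ectoderm markers, Krt14 was at the floor on all 4 arrays and Trp63 reached at most 2.96, while others were bright. Of 11 surface ectoderm and placode markers on the array 5 were kept, and they went both ways. Tfap2a was at 8.29 and 4.78 in endoderm, against 10.42 and 9.27 in mesoderm/ectoderm, whereas Eya1 was at 9.01 and 8.39 in endoderm, against 7.30 and 6.75. Tfap2c was lower in endoderm too, at 7.33 and 6.59 against 10.70 and 9.80, as was Dlx5, while Dsp was higher. Head mesenchyme genes had a median of 7.53 and 5.29 in foregut endoderm 1 and 2, against 5.70 and 5.95 in mesoderm/ectoderm 1 and 2.

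**Figure D1:**
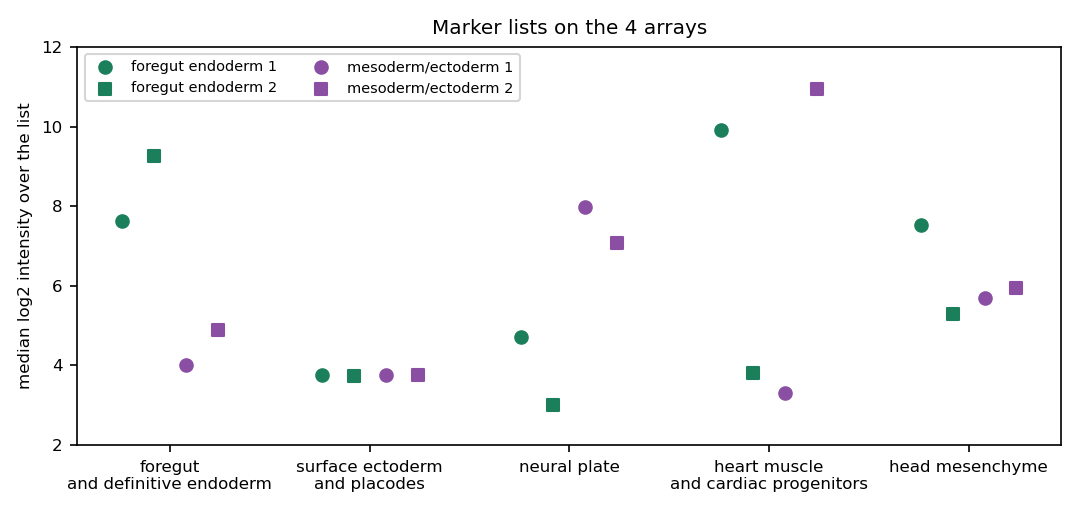
Median log2 intensity of 5 marker lists (vertical axis) on each of the 4 arrays, with green symbols for foregut endoderm, purple for mesoderm/ectoderm, circles for experiment 1 and squares for experiment 2. Endoderm markers separate the tissues in both experiments, whereas the heart list is high on the arrays of endoderm 1 (9.91) and mesoderm/ectoderm 2 (10.96).

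Frem1, the secreted member, had the largest tissue difference of the 4 genes in both experiments. Its probe set 1455280_at read 8.61 and 8.49 in foregut endoderm 1 and 2, against 5.14 and 5.32 in mesoderm/ectoderm 1 and 2. Both endoderm arrays were high, both others were low, and the groups did not overlap. In linear intensity these values were 390 and 358 in endoderm, against 35.2 and 39.9 outside it. Frem1 was thus 11.1-fold higher in endoderm in experiment 1 and 8.99-fold higher in experiment 2, log2 differences of 3.47 and 3.17 with a mean of 3.32 ± 0.21 (SD, n = 2 experiments).

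Groups without overlap on the endoderm side are common here, at 16.4% of kept probe sets, while at least 8-fold in both experiments was reached by 0.241%. Ranked by the smaller of the 2 differences, Frem1 stood in place 24 of 13288. The level of Frem1 within a tissue moved little between experiments. It was 0.12 lower in experiment 2 than in experiment 1 in endoderm and 0.18 higher in mesoderm/ectoderm. When any 1 array was left out, the mean difference stayed between 3.23 and 3.41. Fewer cells that make Frem1 and less Frem1 RNA per cell cannot be told apart in such pooled tissue.

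**Figure D2:**
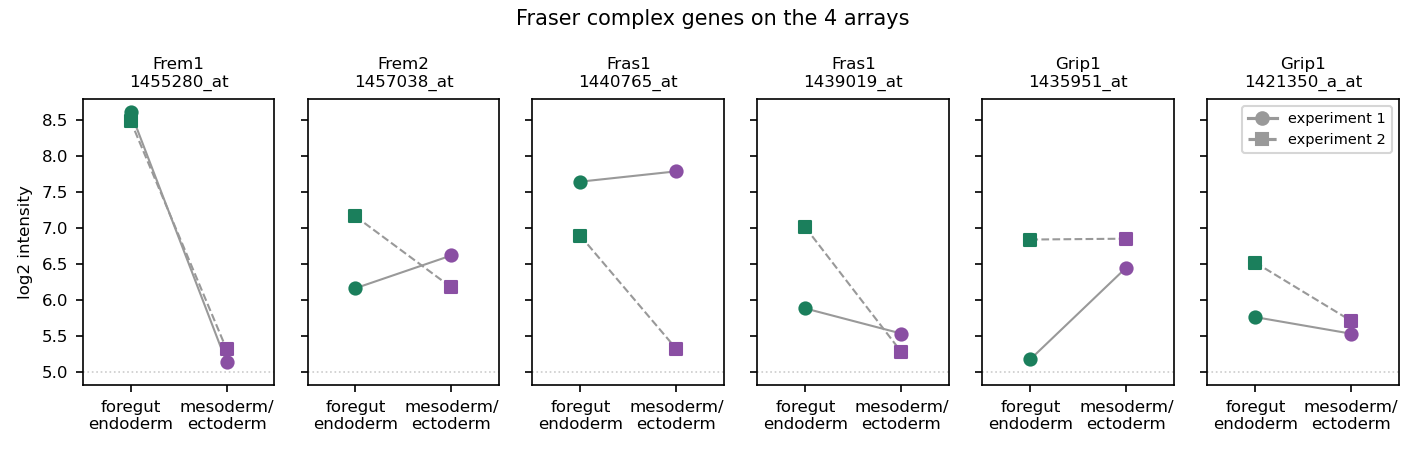
Log2 intensity (vertical axis) of the 6 probe sets on each array, with foregut endoderm in green and mesoderm/ectoderm in purple. Lines join the samples of 1 experiment, solid with circles for experiment 1 and dashed with squares for experiment 2, and the dotted line is the filter at 5. Frem1 drops steeply in both experiments (8.61 and 8.49 against 5.14 and 5.32), while Frem2 slopes opposite ways in the 2 experiments.

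Frem2, a membrane-spanning partner of Frem1, showed no steady tissue difference. Probe set 1457038_at read 6.16 and 7.16 in foregut endoderm 1 and 2, against 6.62 and 6.17 in mesoderm/ectoderm 1 and 2. Its highest and its lowest value were both in endoderm, so the tissues overlapped. The log2 difference was -0.45 in experiment 1 and 0.99 in experiment 2, with a mean of 0.27 ± 1.02 (SD, n = 2 experiments). The gap between the experiments is thus larger than the mean.

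Fras1, the other membrane-spanning member, was read by 2 probe sets that gave the same account of experiment 2 only. Probe set 1440765_at read 7.64 and 6.89 in foregut endoderm 1 and 2, against 7.78 and 5.32 in mesoderm/ectoderm 1 and 2. Here 1 array was low, mesoderm/ectoderm 2, and the tissues overlapped. The differences were -0.14 in experiment 1 and 1.57 in experiment 2. Probe set 1439019_at read 5.88 and 7.01 in endoderm, against 5.53 and 5.28 in mesoderm/ectoderm, where endoderm 2 was the high array and the groups did not overlap. Its differences were 0.35 and 1.73.

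In experiment 2 Fras1 was therefore 2.97-fold and 3.31-fold higher in endoderm by its 2 probe sets, and in experiment 1 0.906-fold and 1.27-fold. The probe sets differed in direction between experiments. Within endoderm, 1440765_at was 0.75 lower and 1439019_at 1.12 higher in experiment 2. In mesoderm/ectoderm both were lower, by log2 differences of -2.46 and -0.26. The mean tissue difference of 1440765_at rests on single samples, as it was 1.95 without mesoderm/ectoderm 1 and -0.52 without mesoderm/ectoderm 2, against 0.71 with all arrays. The heart list had medians of 9.91 and 3.81 in endoderm 1 and 2, against 3.31 and 10.96 in mesoderm/ectoderm 1 and 2. Its part in the Fras1 values was not tested.

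Grip1, the intracellular scaffold, went different ways in its 2 probe sets. Probe set 1435951_at read 5.18 and 6.84 in foregut endoderm 1 and 2, against 6.45 and 6.85 in mesoderm/ectoderm 1 and 2. Endoderm 1 was the low array, and the other three lay close together. The differences were -1.27 in experiment 1 and -0.01 in experiment 2. Probe set 1421350_a_at read 5.76 and 6.52 in endoderm, against 5.53 and 5.71 in mesoderm/ectoderm, without overlap. Its differences were 0.23 and 0.81, both under 2-fold, and the first turned to -0.01 when arrays were centred on their medians. The mean over both probe sets was -0.06, so no direction can be given for Grip1 as a gene.

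Side by side, 1 of the 6 probe sets was at least 2-fold higher in endoderm in both experiments, that of Frem1, where 3.57% of all kept probe sets were. None was at least 2-fold lower in both, against 1% of all. A further 2, those of Fras1, were past 2-fold on the higher side in experiment 2 and not in experiment 1, where 8.11% of all kept probe sets were, and that of Frem2 lay just under it at 1.98-fold. In experiment 2 the 3 matrix genes all read higher in endoderm, where the median log2 difference of all kept probe sets was 0.03. In experiment 1 Frem1 alone was at least 2-fold higher, where 11% of all kept probe sets were. Opposite signs in the experiments, seen in 2 of the 6, occurred in 40.5% of all kept probe sets. Because these contrasts chose the genes, the shares describe them and support nothing.

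For the tissue comparison as a whole, limma called 0 of 13288 probe sets at an adjusted p under 0.05, and 500 had an unadjusted p under 0.05. With the experiment number as a replicate block it also called 0, and 1326 were at an unadjusted p under 0.05. No call was thus available for any gene in that comparison.

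**Figure D3:**
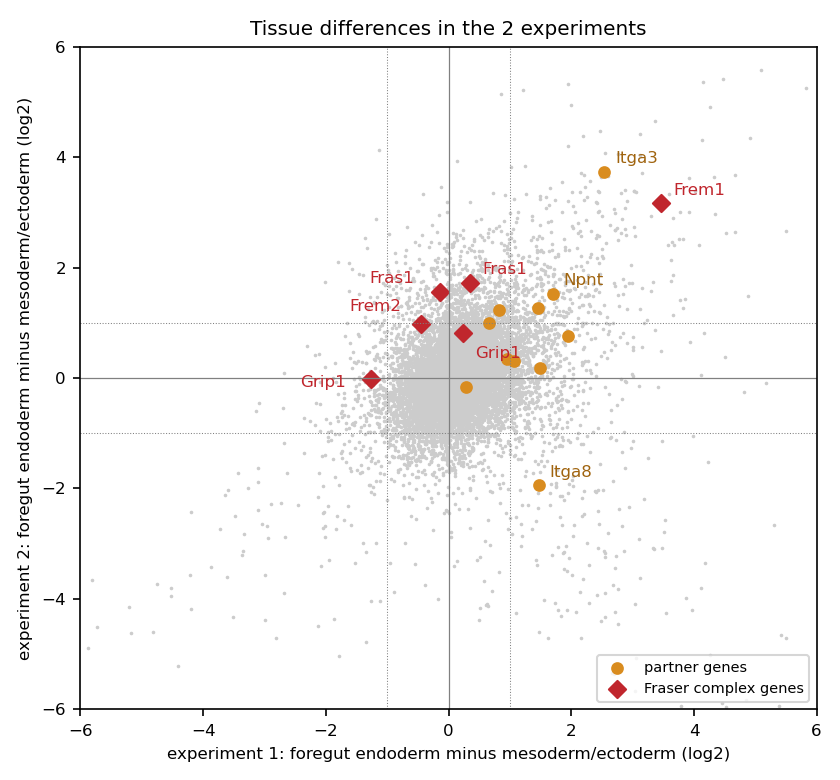
Log2 difference of foregut endoderm minus mesoderm/ectoderm in experiment 1 (horizontal axis) and experiment 2 (vertical axis). Grey points are the 11899 kept probe sets with 1 gene symbol (34 lie outside the axes), red diamonds the 6 probe sets of the Fraser complex genes, orange points the lead probe sets of 11 partner genes, and dotted lines mark 2-fold. Frem1 lies at 3.47 and 3.17, apart from the other 5 diamonds.

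Between the experiments the shift within tissues was read from a fit with tissue as a term, second minus first. In limma 0 of 13288 probe sets (0%) passed an adjusted p of 0.05 in either direction, while 3996 (30.1%) had an unadjusted p under 0.05, and quantile normalization gave 878 calls and median centring 423. The 6 probe sets had been chosen with their values on these arrays known, so their shifts are given without a test. Frem1 differed by 0.03 ± 0.24 (SE), the smallest shift of the 6, and Frem2 by 0.28 ± 0.48. Of the Fras1 probe sets, 1440765_at was at -1.61 ± 0.55 and 1439019_at at 0.43 ± 0.46. Those of Grip1 were at 1.03 ± 0.43 for 1435951_at and 0.47 ± 0.28 for 1421350_a_at. The fit had 1 residual degree of freedom.

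The 4 genes did not share 1 pattern. Over the 4 arrays, with each probe set centred on its own mean, the Euclidean distance between log2 profiles was shortest for Frem2 and Grip1 probe set 1421350_a_at, at 0.535, and next for that Grip1 probe set and Fras1 probe set 1439019_at, at 0.657. The 2 probe sets of Fras1 lay 2.07 apart, farther than Fras1 1439019_at from Frem2 (0.789). Frem1 was at least 2.46 from every other probe set of the complex.

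Among the 7797 genes with a kept lead probe set, the brightest of each gene, the 5 closest to Frem1 over the 4 arrays were Moxd1 (distance 0.438), Prdm1 (0.456), Airn (0.482), Dsg2 (0.542) and Asah2 (0.555). Moxd1 encodes a monooxygenase-like protein, Prdm1 a transcriptional repressor of early endoderm, Airn a noncoding antisense transcript, Dsg2 a desmosomal cadherin and Asah2 a ceramidase. Dsg2 read 10.01 and 10.63 in endoderm, against 6.95 and 7.25 in mesoderm/ectoderm. The gene closest to Frem2 was Zranb3, a DNA repair helicase, at 0.116; that closest to Fras1 probe set 1440765_at was Trpc2, a channel gene, at 0.179; and that closest to Grip1 probe set 1435951_at was Mgst1, a glutathione transferase, at 0.226. With 4 arrays, closeness describes these samples only.

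A list of matrix ligands, receptors, scaffold relatives, processing enzymes and a growth factor held 16 genes. Of these, 14 were on the array and 11 passed the filter. Among these 11, 9 were higher in endoderm in both experiments, where 37% of all genes were, and 0 were lower in both, counts that quantile normalization and median centring left as they were. At least 2-fold higher in both were 3 of 11 (27.3%), against 3.54% of all genes. Of these 3, Itga3 passed the filter through its endoderm arrays alone, so that the filter favoured it. The count also depends on the use of lead probe sets. Other kept probe sets of Itgb1 (2.37 and 1.21) and Pdgfc (1.47 and 1.20) were past 2-fold in both experiments, while that of Npnt (1.69 and 0.96) was not. The median log2 difference was 1.46 in experiment 1 and 0.77 in experiment 2, against 0.15 and 0.01 over all genes. This list and those of basement membrane and GRIP1 cargo genes were chosen with earlier results of these data known. Their shares and medians are therefore a description only. None of the 11 passed limma's test in either direction, with a lowest adjusted p of 0.605, nor with the replicate block, with a lowest adjusted p of 0.304 in limma. The count of 3 became 5 or 2 when endoderm 1 or endoderm 2 was left out, and 1 or 5 when mesoderm/ectoderm 1 or mesoderm/ectoderm 2 was.

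Of 9 markers of yolk sac visceral endoderm, another epithelium, the 4 kept ones also lay higher in the endoderm samples. The others were under 5 on all 4 arrays, with Amn at the floor. Of the kept ones, Afp, Rbp4 and Mttp passed the filter through their endoderm arrays alone, so that the filter favoured genes higher in endoderm. Ttr was also above 5 in mesoderm/ectoderm 2. The median over the list was 4.199 and 3.8372 in endoderm 1 and 2, against 3.3847 and 3.4025 in mesoderm/ectoderm 1 and 2. The summed intensity over the 9 genes was 1389 and 5680 in endoderm 1 and 2, against 102 and 245 in mesoderm/ectoderm 1 and 2. Ttr was the brightest of them in endoderm, at 9.76 and 12.13, against 3.06 and 7.03 outside it. Afp, also kept, read 8.48 and 9.63 in endoderm, against 3.39 and 4.05 outside it. The part of these markers in the values of the complex and its partners was not tested.

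Nephronectin, encoded by Npnt, is a matrix ligand of integrin alpha8 beta1 that depends on the Fraser complex for its place in the basement membrane. On its lead probe set Npnt read 8.38 and 9.07 in foregut endoderm 1 and 2, against 6.67 and 7.54 in mesoderm/ectoderm 1 and 2. There both endoderm arrays were above both others, with differences of 1.71 and 1.53. Its other kept probe set read 7.65 and 8.67 in endoderm, against 5.97 and 7.71 in mesoderm/ectoderm. On that probe set endoderm 1 lay below mesoderm/ectoderm 2, so the tissues overlapped, and the differences were 1.69 and 0.96. Hemicentin 1 (Hmcn1), whose zebrafish counterpart interacts genetically with fraser genes, differed by 0.96 and 0.35. Vwa2, the matrix protein AMACO that binds the complex, was below the filter and reached 4.53 in foregut endoderm 2 only.

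Integrins are the receptors on the cell side. Itga3, the alpha3 chain that pairs with beta1 on laminins, read 7.47 and 8.62 in foregut endoderm 1 and 2, against 4.93 and 4.88 in mesoderm/ectoderm 1 and 2. It was 5.82-fold and 13.3-fold higher in endoderm in the 2 experiments, the largest mean difference on the list (3.14 ± 0.51, SE). Its partner chain Itgb1 differed by 1.95 and 0.77 on its lead probe set and by 2.37 and 1.21 on its other kept one. The alphav chain Itgav differed by 1.46 and 1.27.

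Itga8, the nephronectin receptor chain, did not go with its ligand. It read 6.24 and 4.04 in foregut endoderm 1 and 2, against 4.77 and 5.99 in mesoderm/ectoderm 1 and 2. The high arrays were endoderm 1 and mesoderm/ectoderm 2, and the differences were 1.47 and -1.94. The same 2 arrays carried the heart muscle genes, with summed intensities of 16637 in endoderm 1 and 94916 in mesoderm/ectoderm 2, against 1114 in endoderm 2 and 325 in mesoderm/ectoderm 1. The part of those genes' cells in the Itga8 values was not tested.

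Scaffold relatives, processing enzymes and a growth factor completed the list. Gripap1, which binds GRIP1, was at 0.65 and 1.00, and Grip2, the relative of Grip1, at 0.29 and -0.15. Cspg4, the proteoglycan NG2, lay below the filter on all arrays, at 3.18 on both endoderm arrays. The proprotein convertase genes Furin (1.07 and 0.30) and Pcsk5 (1.49 and 0.18) were closer to 0 in experiment 2, and Pcsk6 was below the filter. The growth factor gene Pdgfc was at 0.82 and 1.23, and at 1.47 and 1.20 on its other kept probe set.

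**Figure D4:**
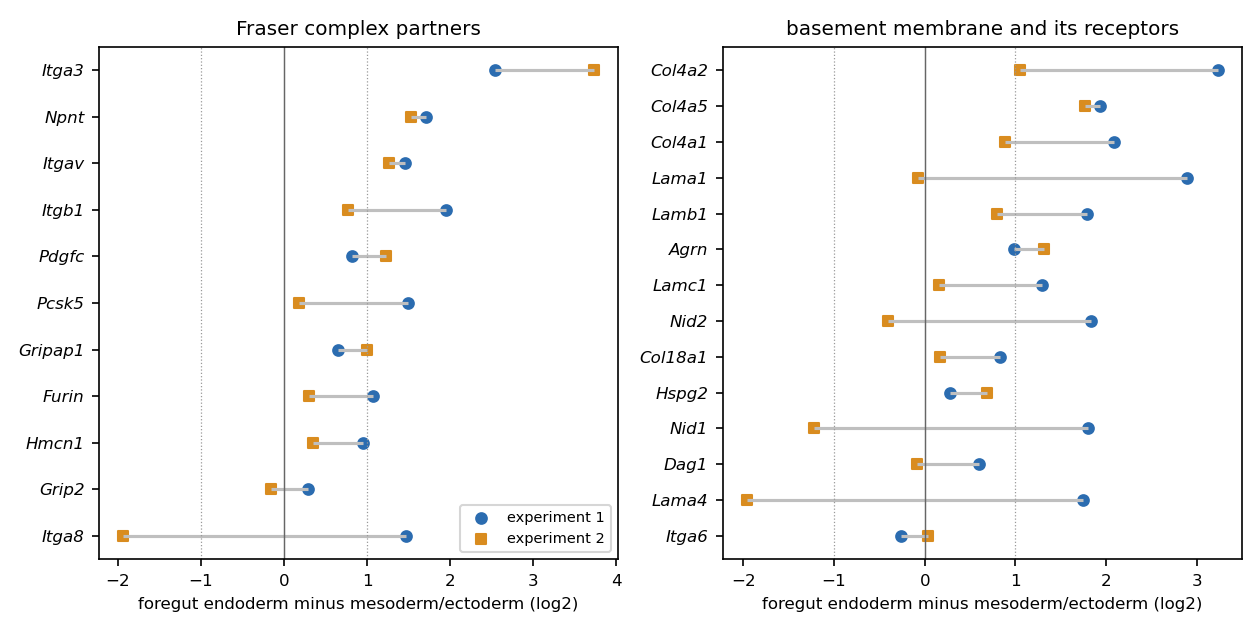
Log2 difference of foregut endoderm minus mesoderm/ectoderm (horizontal axis) for the kept lead probe set of each gene on 2 lists, with blue circles for experiment 1, orange squares for experiment 2 and dotted lines at 2-fold. Itga3 (2.54 and 3.74), Npnt (1.71 and 1.53) and Itgav (1.46 and 1.27) are past 2-fold in both experiments, and Itga8, Nid1 and Lama4 are among the genes whose sign changes.

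The basement membrane into which the complex is built was described by 28 genes, of which 14 passed the filter. Of these, 8 were higher in endoderm in both experiments, where 37% of all genes were, and 0 were lower in both, where 24.3% were. Under quantile normalization and median centring 8 were higher, against 28.4% and 24.2% of all genes, and 1 was lower. As deposited, 2 were at least 2-fold higher in both (14.3%, against 3.54% of all genes). Those were the collagen IV chains Col4a2 (3.24 and 1.05) and Col4a5 (1.93 and 1.76). This count too depends on the use of lead probe sets. The other kept probe set of Col4a5 (1.46 and 0.51) was not past 2-fold in experiment 2, and Col4a2 was only just past it there. Col4a1, the partner chain of Col4a2, was at 2.09 and 0.88. The laminin chain Lama1 was at 2.89 and -0.07. None of the 14 passed limma's test, with a lowest adjusted p of 0.817. The median difference was 1.77 in experiment 1 and 0.16 in experiment 2. The endothelial list, whose cells also make basement membrane, had a median of 6.40 and 3.07 in endoderm 1 and 2, against 4.14 and 5.72 in mesoderm/ectoderm 1 and 2, and its part was not tested.

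Of 13 genes for cargo and transport of GRIP1, 7 were kept. On their lead probe sets 5 were higher in endoderm in both experiments (37% of all genes). Lower in both was 1 (24.3%), Kif5c (-0.56 and -0.44), and median centring gave 3 higher and 2 lower. At least 2-fold higher in both were 0 (3.54%), though another kept probe set of Kif5b (1.23 and 1.03) was. Rab4a, a GTPase of endosomal recycling, was at 1.12 and 0.98, and Efnb2, the ephrin ligand, at 0.13 and 1.53. None passed limma's test (lowest adjusted p 1.0). The AMPA receptor genes Gria1 and Gria2, whose products GRIP1 binds in neurons, were at the floor on all 4 arrays. Gria3, of the same receptor family, was below the filter and read 4.66 and 6.02 in endoderm, against 3.57 and 2.87 in mesoderm/ectoderm.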

How the data were processed

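Column-purified RNA of 4 pooled tissue samples went through 2 rounds of linear amplification with biotin labelling and was read on MOE430 arrays of Affymetrix, per the labels' protocols. The authors deposited 1 intensity per probe set. They normalized with GC-RMA (GenePattern), per the design text, and RMA is named per the submitters' processing notes. No source used here gives versions, parameters or the scale, and the values, from 4.75 upwards, were read as linear. GC-RMA shrinks dim probe sets to a floor, where 41.3% to 44.7% of probe sets sat (no more than 0.1 in log2 above an array's lowest value). The number of arrays, 2 per tissue, limits precision.

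Here log2 was taken, 64 control probe sets were left out, and probe sets above 5 on at least 2 arrays were kept. Of 45101 probe sets 34958 had 1 gene symbol, 932 several and 9211 none. A gene was read from its lead probe set, the one with the highest mean, and other probe sets of the 4 genes are given too. limma 3.58.1 in R 4.3.3 (lmFit, eBayes, two-sided, Benjamini-Hochberg over all features, threshold 0.05) compared tissues without a block and experiments with tissue as a term, after a check on simulated data. Samples are paired by their number, since tissues of 1 number shared a way of dissection, per the labels' protocols. Arrays correlated more by experiment (Pearson's r 0.928 and 0.907 across kept probe sets) than by tissue (0.867 and 0.814). Named genes were all probe sets of the 4 genes, all partner genes, up to 4 genes per other list by size of difference and the 5 nearest profiles; Gria1, Gria2, Gria3, Nid1, Lama4 and Smoc2 were named after their values were seen. The genes, lists and tests were chosen with earlier results of these data known. Scalings, an offset of 16, the filter, the block and leaving out arrays were tried as alternatives.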

Additional observations from a re-analysis of the deposited data

Results flagged for a closer look

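The tissue difference changed sign between the experiments for 4 probe sets of the complex and its partners. The change, experiment 2 minus experiment 1 in log2 units, was 1.44 for Frem2 (from its differences of -0.454 and 0.987), 1.71 for Fras1 probe set 1440765_at (-0.142 and 1.57), -3.42 for Itga8 (1.47 and -1.94) and -0.44 for Grip2 (0.286 and -0.154). With 1 array per tissue in either experiment the change itself was not tested.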

How the results depend on the processing

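Scaling moved the median tissue difference of all kept probe sets, 0.10 as deposited, to -0.02 with quantile normalization and -0.08 with median centring. The numbers of probe sets at least 2-fold higher and lower in both experiments were 474 and 133 as deposited, 367 and 194 with quantile normalization, 347 and 211 with median centring, and 118 and 51 at 4-fold. Without 1 array they ran from 616 to 1097 and from 204 to 525, where the lone array served both experiments. Calls between experiments were 878 and 423 under these scalings, against 0 as deposited. The mean difference of Frem1 was 2.87 with the offset of 16 (an offset shrinks dim differences by construction), 3.16 and 3.14 under the scalings, and 3.23 to 3.41 without 1 array. That of Fras1 probe set 1440765_at ran from -0.52 to 1.95, of Frem2 from -0.23 to 0.76 and of Grip1 probe set 1435951_at from -1.47 to 0.19 without 1 array. The small experiment difference of Frem1 became -0.023 with median centring, and within single tissues it ran from -0.12 to 0.18. Those of Frem2 ran from -0.44 to 1.00 and of Fras1 probe set 1439019_at from -0.26 to 1.12. Leaving out 1 array gave 1 to 5 partner genes and 2 to 6 basement membrane genes past 2-fold on the higher side, 0 to 1 basement membrane genes on the lower side, and 0 to 1 GRIP1 cargo genes on the higher side. Basement membrane genes numbered 1 with median centring, 1 with the offset and 3 without a filter, against 2, the added gene being Smoc2 (4.45 and 6.69 in endoderm, at the floor on both mesoderm/ectoderm arrays), and GRIP1 cargo genes 1 without a filter, against 0. Under the replicate block, limma called 0 probe sets (lowest adjusted p 0.352) and 0 genes of each partner list, so the block changed no call. The causes of these shifts were not tested.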
